A study of Arabidopsis thaliana with 83 samples.

Results

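EXPA7 (AT1G12560, probe set 259525_at) and EXPA18 (AT1G62980, probe set 261099_at) are a pair of alpha-expansin genes of Arabidopsis thaliana. They were taken as the probe sets listed in the array annotation with EXPA7 or EXPA18 alone, which gave 1 probe set per gene, 2 of the 22746 probe sets left after the array's controls were set aside. Both passed the filter on low signal and were among the 15922 probe sets tested. Signals came from Affymetrix ATH1 arrays of whole seedlings of 7 natural accessions (Sha, Bay-0, Bur-0, Col-0, C24, Fei-0 and Bl-1), sampled at times labelled 0 h, 30 min, 1 h and 3 h in a study of the response to auxin. There were 28 groups and 83 arrays, 3 to a group and 2 for the 3 h group of Fei-0. All groups shared the same culture: seed kept 5 days in the cold, then 7 days in shaken liquid medium at 22 °C in constant light, with a yellow filter over the light in the last 24 h. The auxin dose is not given in the sources used here, and no mock-treated arrays were analysed here, so time in culture and auxin cannot be told apart. The Bay-0 arrays carry Bay-0 as ecotype and also the words recombinant inbred line, and were read as Bay-0. Nothing in the labels ties the arrays of a group to separate cultures. The p-values therefore rest on a spread between samples that may be technical.

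Expansins are wall proteins that loosen the contacts between cellulose and other wall polymers, so that a cell under turgor can extend. Root hairs are tubes that grow out of single epidermal cells of the root, and EXPA7 and EXPA18 are known in Arabidopsis as genes expressed mainly in those hair cells. Auxin is known to promote root hair growth, and it acts in the nucleus by removing Aux/IAA repressors from auxin response factors. The arrays held RNA of whole seedlings, so more hair cells and more RNA per hair cell cannot be told apart. None of the other root hair and non-hair genes set as markers (RSL4, RHD6, LRX1, PRP3, COW1, RHD2, GL2 and WER) had a probe set listed with it alone, so the label "root hair" rests mainly on what is known of EXPA7 and EXPA18. XTH26, on the wider list of root hair growth genes, had a probe set too dim to be tested, whose signals are given with that list.

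The signals are linear and were scaled by the submitters to the same trimmed mean of 100.0 in every array, in which the median probe set lay between 38.0 and 43.3. EXPA7 and EXPA18 were dim at 0 h on that scale. Over the 21 arrays at 0 h, EXPA7 ran from 7.10 to 50.4 with a median of 22.1, and EXPA18 ran from 14.0 to 45.2 with a median of 26.0. Changes were therefore tested on log2(signal + 16), where 16 is a pseudocount that damps noise in dim signals and makes a fold change smaller than the ratio of the signals. That shrinkage is stronger where signals are dimmer, so it is not equal between accessions. At 0 h, EXPA7 lay below 16 on 4 arrays and EXPA18 on 1. Replicate arrays were more spread for these genes than for most probe sets, with a residual SD of 0.27 (log2) for EXPA7 and 0.22 for EXPA18 against a median of 0.17 over all tested probe sets. GH3.3, an auxin-conjugating enzyme used as a check that auxin genes moved, was higher by 4.23 (log2) at 30 min, 5.34 at 1 h and 5.20 at 3 h, averaged over the accessions.

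The signals of both genes rose in the mean of the 7 accessions, and that of EXPA7 rose more. The plot of array signals by accession and time shows the values behind the tests.

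**Figure D1:**
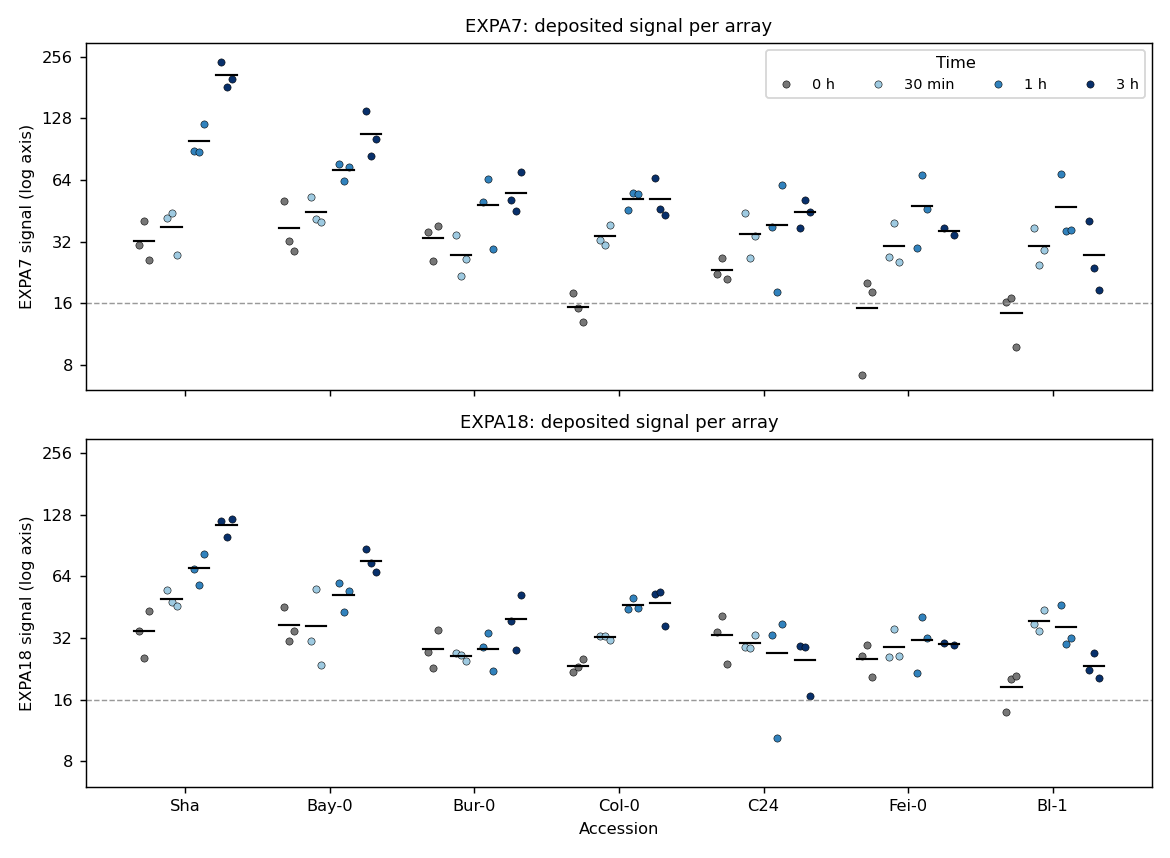
Deposited signal of EXPA7 (top) and EXPA18 (bottom) on each array, on a log axis, by accession (x) and time (grey for 0 h to dark blue for 3 h), where points are arrays and short lines are means. Sha at 3 h held the highest signals of both genes, 183 to 241 for EXPA7 and 99.7 to 122 for EXPA18, and the dashed line marks the pseudocount of 16.

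Relative to 0 h, the mean change of EXPA7 was 0.35 ± 0.08 (log2, SE of the model) at 30 min, 0.84 ± 0.08 at 1 h and 0.99 ± 0.08 at 3 h, with adjusted p of 0.000462, 1.31e-14 and 1.73e-17 (limma, Benjamini-Hochberg over all probe sets tested). EXPA18 changed by 0.19 ± 0.07, 0.33 ± 0.07 and 0.47 ± 0.07, with adjusted p of 0.0339, 3.62e-05 and 2.24e-08. Each rise passed the threshold of an adjusted p under 0.05, and none reached 2-fold in the mean, EXPA7 at 3 h lying just under it at 1.99-fold. A mean rise that passed and reached 2-fold was found for 0.609%, 0.81% and 0.685% of tested probe sets. A rise past the same threshold was common: 10.7% of tested probe sets were higher at 30 min, 15.1% at 1 h and 22.2% at 3 h. The size of the change was less common for EXPA7, which 4% of tested probe sets exceeded at 30 min, 1.06% at 1 h and 0.703% at 3 h. For EXPA18 the shares above it were 8.21%, 5.36% and 3.71%. The median change of all tested probe sets was -0.03, -0.01 and 0.01 at the same times.

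The smallest of these rises, that of EXPA18 at 30 min, did not hold in every setting. It was 0.15 with an adjusted p of 0.158 without the Sha arrays, and 0.19 with an adjusted p of 0.0506 when no probe set was filtered out. It also lost the call without any 1 of 10 single arrays, where the change lay between 0.15 and 0.18. They were Bay-0 0 h replicate 2 (0.17), Bay-0 30 min replicate 2 (0.15), Bl-1 0 h replicate 1 (0.17), Bl-1 30 min replicate 3 (0.18), Bur-0 0 h replicate 2 (0.17), C24 0 h replicate 3 (0.17), Fei-0 0 h replicate 3 (0.17), Fei-0 30 min replicate 2 (0.17), Sha 0 h replicate 2 (0.17) and Sha 30 min replicate 1 (0.18). The pseudocount set the size of the larger changes but not their call. EXPA7 at 3 h changed by 1.38 with a pseudocount of 1 and by 0.57 with 64, and EXPA18 at 3 h by 0.62 and 0.27.

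Between sampled times, the only step of the mean that passed was that of EXPA7 from 30 min to 1 h, 0.50 ± 0.08 (adjusted p = 1.05e-06), in a step where 12.6% of tested probe sets were higher. From 1 h to 3 h, EXPA7 moved by 0.15 ± 0.08 (adjusted p = 0.14), and this step passed without C24 1 h replicate 3 (0.19, adjusted p = 0.0471). EXPA18 moved by 0.15 ± 0.07 from 30 min to 1 h (adjusted p = 0.0974) and by 0.13 ± 0.07 from 1 h to 3 h (adjusted p = 0.121). The earlier of these EXPA18 steps passed without Bay-0 30 min replicate 2 (0.18) or C24 1 h replicate 2 (0.19).

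Sha showed the largest response of both genes at 3 h. EXPA7 signals in Sha were 183, 200 and 241 at 3 h against 26.0, 30.7 and 40.1 at 0 h, and EXPA18 signals were 99.7, 120 and 122 at 3 h against 25.4, 34.6 and 43.3 at 0 h. Every 3 h array lay far above every 0 h array of Sha. The change at 3 h was 2.22 ± 0.21 for EXPA7 (adjusted p = 1.17e-13) and 1.37 ± 0.18 for EXPA18 (adjusted p = 4.53e-09). At 30 min the EXPA7 signals of Sha, 27.6, 41.5 and 44.3, still overlapped those at 0 h, with a change of 0.15 ± 0.21 that did not pass. At 1 h they were 87.9, 88.9 and 120, a change of 1.25 ± 0.21 (adjusted p = 4.97e-06). EXPA18 in Sha was 45.7, 47.9 and 54.7 at 30 min, a change of 0.39 ± 0.18 that did not pass (adjusted p = 0.1) although its arrays lay clear of those at 0 h. At 1 h it was 58.4, 69.9 and 82.5, a change of 0.78 ± 0.18 (adjusted p = 0.000979). Sha was also the only accession in which either step of EXPA7 passed, 1.10 ± 0.21 from 30 min to 1 h (adjusted p = 0.000177) and 0.97 ± 0.21 from 1 h to 3 h (adjusted p = 0.000747), steps in which 5.67% and 3.29% of tested probe sets were higher in Sha. The later step lost its call without all arrays of replicate number 1 (0.80, adjusted p = 0.0546), and the earlier step in Bur-0 passed without Bur-0 1 h replicate 3 (0.76, adjusted p = 0.0438). The Sha step of EXPA18 from 1 h to 3 h, 0.59 ± 0.18 (adjusted p = 0.0239), lost its call without Sha 1 h replicate 1 (0.60), Sha 1 h replicate 2 (0.49), Sha 3 h replicate 1 (0.56) or Sha 3 h replicate 3 (0.55), and with a pseudocount of 1.

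Bay-0 came next. EXPA7 signals in Bay-0 were 83.8, 101 and 139 at 3 h against 28.7, 32.3 and 50.4 at 0 h, and EXPA18 signals were 67.3, 74.2 and 87.6 at 3 h against 30.8, 34.8 and 45.2 at 0 h. The arrays of the 2 times did not overlap for either gene. The change at 3 h was 1.22 ± 0.21 for EXPA7 (adjusted p = 4.42e-06) and 0.81 ± 0.18 for EXPA18 (adjusted p = 0.000319). At 30 min neither gene passed in Bay-0, with EXPA7 at 40.1, 41.1 and 52.9 (change 0.21 ± 0.21) and EXPA18 at 23.7, 30.8 and 55.8 (change -0.04 ± 0.18). At 1 h EXPA7 was 63.3, 74.0 and 76.7, a change of 0.74 ± 0.21 that passed, and EXPA18 was 42.8, 54.4 and 59.6, a change of 0.37 ± 0.18 that did not (adjusted p = 0.219).

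In Col-0 the signals at 1 h and 3 h were close together. EXPA7 signals in Col-0 were 12.9, 15.1 and 18.0 at 0 h and 30.9, 32.5 and 38.3 at 30 min. They were 45.6, 54.7 and 55.3 at 1 h and 43.3, 45.9 and 65.2 at 3 h, so that each later array lay above each 0 h array. The changes at 1 h and 3 h were 1.12 ± 0.21 (adjusted p = 4.32e-05) and 1.10 ± 0.21 (adjusted p = 3.65e-05). EXPA18 in Col-0 was 21.8, 23.0 and 25.2 at 0 h and 31.4, 32.8 and 32.8 at 30 min. It was 44.3, 44.7 and 50.5 at 1 h and 36.8, 52.4 and 53.9 at 3 h, again clear of the 0 h arrays at each later time. Its changes at 1 h and 3 h were 0.67 ± 0.18 (adjusted p = 0.00595) and 0.69 ± 0.18 (adjusted p = 0.00273).

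In Bl-1 both genes had their highest mean signal before 3 h. EXPA7 signals in Bl-1 were 9.79, 16.2 and 17.0 at 0 h and 24.7, 29.2 and 37.1 at 30 min. They were 36.2, 36.3 and 68.4 at 1 h and 18.6, 23.7 and 40.3 at 3 h, with 1 array well above the other two at 1 h. The change of EXPA7 was 1.02 ± 0.21 at 1 h (adjusted p = 0.00023) and 0.50 ± 0.21 at 3 h (adjusted p = 0.09). The step between those times, -0.52 ± 0.21, did not pass (adjusted p = 0.163), so a decline after 1 h was not resolved. EXPA18 signals in Bl-1 were 14.0, 20.3 and 20.8 at 0 h and 34.6, 37.6 and 44.1 at 30 min. They were 30.0, 31.9 and 46.2 at 1 h and 20.3, 22.2 and 27.1 at 3 h, where they overlapped the 0 h arrays. EXPA18 rose by 0.67 ± 0.18 at 30 min (adjusted p = 0.00481), its only passed change at that time in any accession. At 3 h its change in Bl-1 was 0.19 ± 0.18, which did not pass. Its step from 1 h to 3 h, -0.40 ± 0.18, did not pass (adjusted p = 0.238), so a decline was not resolved for EXPA18 either.

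In C24, EXPA7 passed at 3 h and EXPA18 lay below its 0 h level, a contrast that was not tested within C24 alone. EXPA7 signals in C24 were 37.4, 44.7 and 51.1 at 3 h against 21.1, 22.1 and 26.7 at 0 h, a change of 0.62 ± 0.21 (adjusted p = 0.0274). EXPA18 signals in C24 were 16.8, 28.9 and 29.3 at 3 h against 23.8, 34.2 and 41.1 at 0 h, a change of -0.26 ± 0.18 that did not pass (adjusted p = 0.357). EXPA7 arrays of the 2 times did not overlap, and those of EXPA18 did. At 30 min EXPA7 was 26.6, 34.0 and 44.1 (change 0.36 ± 0.21) and EXPA18 was 28.5, 29.0 and 33.1 (change -0.07 ± 0.18), and neither passed. At 1 h the arrays were spread widely, 18.1, 37.6 and 60.2 for EXPA7 and 10.4, 33.0 and 37.4 for EXPA18. C24 replicate 2 held the lowest 1 h signal of both genes. That array also had the highest GAPDH 3'/5' ratio of its group, a sign of RNA quality, with 4.38 against 2.03 and 2.56. Its part in the result was not tested, but without it the change at 1 h was 0.70 for EXPA7 (adjusted p = 0.0307), against 0.40 ± 0.21 with it, and 0.08 for EXPA18 (adjusted p = 0.881), against -0.24 ± 0.18 with it.

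In Bur-0 and Fei-0 only EXPA7 passed. EXPA7 in Bur-0 was 45.3, 51.1 and 70.1 at 3 h against 25.7, 35.7 and 38.2 at 0 h, a change of 0.53 ± 0.21 (adjusted p = 0.0433) that no earlier time shared. EXPA18 in Bur-0 was 28.1, 38.9 and 51.9 at 3 h against 22.7, 27.5 and 35.0 at 0 h, a change of 0.31 ± 0.18 that did not pass. The EXPA18 arrays of Bur-0 overlapped between the 2 times. Earlier, EXPA7 in Bur-0 was 21.7, 26.4 and 34.3 at 30 min (change -0.18 ± 0.21) and 29.5, 49.8 and 64.7 at 1 h (change 0.35 ± 0.21), and EXPA18 was 24.6, 26.4 and 27.1 at 30 min (change -0.07 ± 0.18) and 22.1, 28.9 and 33.9 at 1 h (change -0.00 ± 0.18). None of these 4 changes passed. In Fei-0, EXPA7 was 25.4, 26.8 and 39.4 at 30 min, clear of the 0 h arrays but with a change of 0.60 ± 0.21 that did not pass (adjusted p = 0.157). It was 29.7, 46.1 and 67.6 at 1 h against 7.10, 18.2 and 20.0 at 0 h, a change of 1.02 ± 0.21 (adjusted p = 0.000334). The 2 Fei-0 arrays at 3 h gave 34.3 and 37.4, a change of 0.76 ± 0.23 (adjusted p = 0.0222). EXPA18 in Fei-0 was 20.6, 26.0 and 29.5 at 0 h and 25.7, 26.1 and 35.4 at 30 min. It was 21.5, 32.1 and 40.5 at 1 h and 29.4 and 30.4 at 3 h, overlapping the 0 h arrays at each time. Its changes were 0.12, 0.18 and 0.16 (log2), none of which passed.

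Counted over accessions, EXPA7 passed as higher in 2, 5 and 6 of 7 at 30 min, 1 h and 3 h. EXPA18 passed in 1, 3 and 3. No accession passed as lower for either gene. The share of tested probe sets that passed as higher at 30 min was 11.9% in Sha, 8.06% in Bay-0, 6.86% in Bur-0, 5.04% in Col-0, 3.25% in C24, 1.71% in Fei-0 and 6.69% in Bl-1. At 1 h the shares were 6.63%, 5.37%, 11.4%, 5.97%, 7.86%, 4.54% and 4.68% in the same order. At 3 h they were 9.05%, 11%, 16.4%, 9.09%, 9.21%, 5.14% and 7.57%. Bur-0, where many probe sets rose at 1 h and 3 h, was among the accessions with small EXPA7 and EXPA18 changes. A change that both passed and reached 2-fold was found for EXPA7 in 0, 4 and 3 accessions, and for EXPA18 in 0, 0 and 1, beside 1.07%, 1.22% and 1.41% of all tested probe sets pooled over the 7 accessions. The arrays of the later time all lay above those at 0 h in 3, 5 and 7 accessions for EXPA7 and in 3 at each time for EXPA18. Pooled over the accessions, that happened for 12.4%, 13.7% and 17.5% of tested probe sets at the 3 times.

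**Figure D2:**
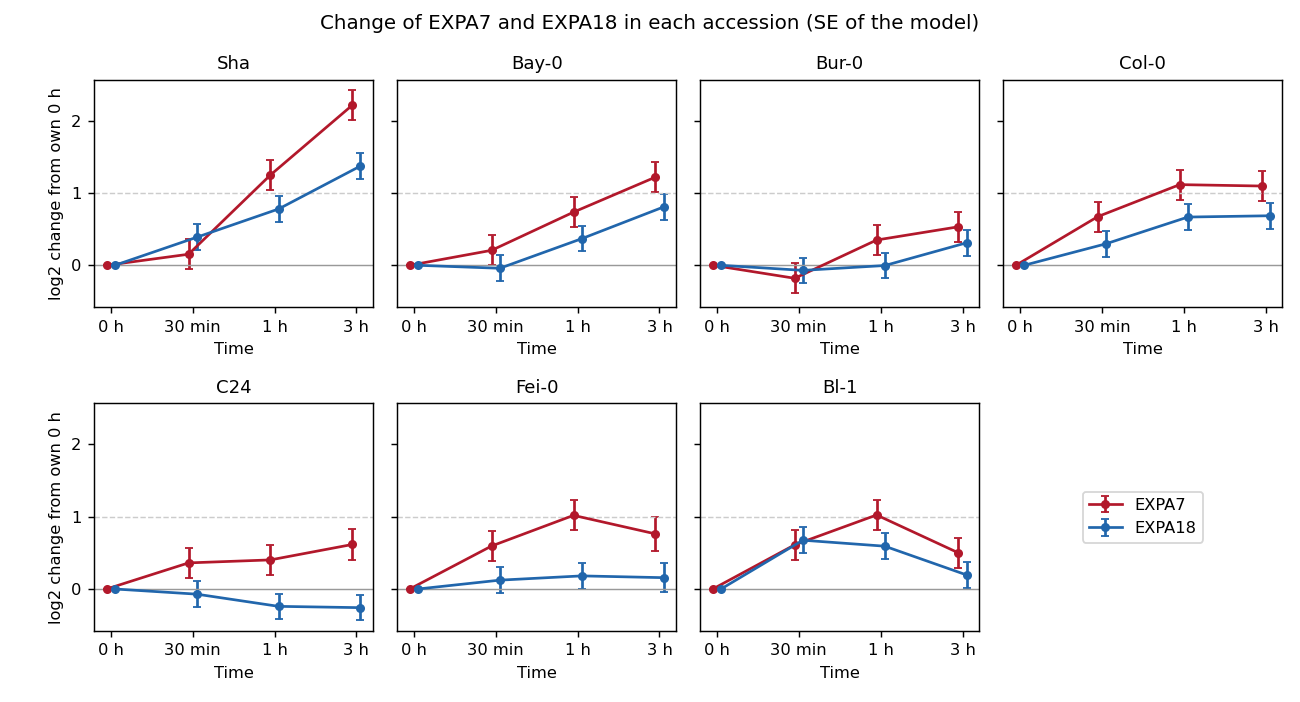
Change of EXPA7 (red) and EXPA18 (blue) from the accession's own 0 h arrays, on the log2(signal + 16) scale (y) by time (x, evenly spaced), 1 panel per accession, where bars are the SE of the model and the dashed line marks 2-fold. EXPA7 in Sha reached 2.22 at 3 h, and EXPA18 in C24 lay at -0.26.

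Of these 13 passed responses of EXPA7, 7 kept their call without any single array and in every other setting tried: Sha, Col-0, Bl-1 and Fei-0 at 1 h, and Sha, Bay-0 and Col-0 at 3 h. The other EXPA7 calls were lost without some single arrays. Leaving out an array also leaves a smaller group with a larger SE, so a lost call need not mean a smaller change. In Col-0 at 30 min, for example, the change was 0.72 ± 0.24 without 30 min replicate 2, against 0.67 ± 0.21 with it. Bl-1 at 30 min (0.61 ± 0.21, adjusted p = 0.0379) lost its call without 0 h replicate 1 (0.66), 2 (0.68) or 3 (0.50) or 30 min replicate 1 (0.51) or 3 (0.62) of Bl-1. Col-0 at 30 min (0.67 ± 0.21, adjusted p = 0.0307) lost it without 0 h replicate 2 (0.67) or 3 (0.62) or 30 min replicate 1 (0.69), 2 (0.72) or 3 (0.61) of Col-0. Both of these also lost it with no filter and with a pseudocount of 64. Bay-0 at 1 h (0.74 ± 0.21, adjusted p = 0.0137) lost it without 0 h replicate 2 (0.68) or 3 (0.62) or 1 h replicate 1 (0.69) or 3 (0.71) of Bay-0.

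At 3 h, the EXPA7 call in Bur-0 ended without 0 h replicate 1 (0.57) or 2 (0.42) or 3 h replicate 1 (0.57) or 3 (0.39) of Bur-0, and in 5 of 8 other settings. In C24 it ended without 0 h replicate 1 (0.60) or 3 (0.58) or 3 h replicate 2 (0.54) or 3 (0.61) of C24. In Fei-0 it ended without 0 h replicate 1 (0.56) or 3 h replicate 2 (0.72) or 3 (0.81) of Fei-0, and in 4 of 8 other settings. Of the 7 passed responses of EXPA18, 6 kept their call without any single array. The exception was Bl-1 at 1 h (0.59 ± 0.18, adjusted p = 0.0195), which lost it without 0 h replicate 1 (0.50) or 1 h replicate 1 (0.46) of Bl-1. When the arrays of replicate number 1 were all left out, EXPA18 also lost its calls in Bl-1 at 30 min (0.59) and in Col-0 at 1 h (0.66) and 3 h (0.60), which left 3 that held in every setting. The direction of each named change stayed the same without these arrays.

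Whether the accessions differed in their response was tested with a moderated F test over the 7 changes at each time. At 3 h they differed for EXPA7, with a range of 1.72 (log2) from Bl-1 to Sha (adjusted p = 1.59e-05), and for EXPA18, with a range of 1.63 from C24 to Sha (adjusted p = 7.04e-06). This F test passed for 32.4% of tested probe sets at 3 h, and for 11.2% with a range of at least 1. At 1 h EXPA18 differed, with a range of 1.02 from C24 to Sha (adjusted p = 0.00637), where 21.8% of tested probe sets passed and 7.33% did so with a range of at least 1. This call was lost without all arrays of replicate number 1 (range 1.13, adjusted p = 0.182). EXPA7 at 1 h had a range of 0.90 and did not pass (adjusted p = 0.0618). It passed without Bur-0 1 h replicate 2 (1.09), C24 1 h replicate 3 (1.13), Fei-0 1 h replicate 1 (0.90) or Sha 0 h replicate 2 (1.01), and reached an adjusted p of 0.05 without Bur-0 0 h replicate 2 (1.02). At 30 min neither gene passed, with ranges of 0.85 for EXPA7 (adjusted p = 0.13) and 0.75 for EXPA18 (adjusted p = 0.0777), in a test that 29.9% of tested probe sets passed. That of EXPA18 passed without Bay-0 30 min replicate 2 (0.96, adjusted p = 0.0183) or C24 0 h replicate 3 (0.89, adjusted p = 0.0456). It also passed without all arrays of replicate number 2 (1.14, adjusted p = 0.0143) or without C24 1 h replicate 2 (0.75, adjusted p = 0.0354). The last array is not part of the 30 min comparison, and entered the test through the spread estimated over all arrays.

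The difference in EXPA7 at 3 h rested on Sha and that in EXPA18 did not rest on it alone. Without the Sha arrays, an alternative chosen after the data were seen, the range at 3 h was 0.72 for EXPA7 (adjusted p = 0.182) and 1.07 for EXPA18 (adjusted p = 0.00842). At 1 h without Sha, EXPA18 still differed, with a range of 0.91 (adjusted p = 0.029). Of the 21 pairs of accessions, 5 differed in the 3 h change of EXPA7, each between Sha and another accession: Bl-1, Bur-0, C24, Col-0 and Fei-0. The Bl-1 minus Sha difference was -1.72 ± 0.30 (adjusted p = 1.59e-05). Bay-0 minus Sha was -0.996 ± 0.296 and narrowly did not pass (adjusted p = 0.0516). For EXPA18, 6 of the 21 pairs differed at 3 h, 4 of them with Sha. The other two were Bay-0 minus C24, 1.07 ± 0.25 (adjusted p = 0.00242), and C24 minus Col-0, -0.94 ± 0.25 (adjusted p = 0.0245). Pooled over the 21 pairs, 7.57% of tested probe sets differed in their 3 h change, from 1.3% to 22.2% by pair.

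Signal levels also differed between accessions before treatment, and the order was similar for both genes. Each gene was read by 1 probe set, whose match to the sequence of each accession was not checked. A difference in signal between accessions, here or at 3 h, therefore need not be a difference in RNA. At 0 h the mean EXPA7 signal ran upward in the order Bl-1 (14.3 ± 3.94, SD), Fei-0 (15.1 ± 7.00), Col-0 (15.3 ± 2.55), C24 (23.3 ± 2.97), Sha (32.3 ± 7.21), Bur-0 (33.2 ± 6.64) and Bay-0 (37.1 ± 11.6). No 2 neighbours in that order differed past the threshold (adjusted p from 0.254 to 0.959), while the F test over all 7 passed (range 0.80, adjusted p = 0.000171) and 9 of 21 pairs did. EXPA18 at 0 h ran from Bl-1 (18.4 ± 3.81) through Col-0 (23.3 ± 1.74), Fei-0 (25.4 ± 4.52), Bur-0 (28.4 ± 6.16), C24 (33.0 ± 8.69) and Sha (34.5 ± 8.96) to Bay-0 (36.9 ± 7.41). Again no neighbours differed. The F test of EXPA18 at 0 h passed (range 0.62, adjusted p = 0.0148), with 4 of 21 pairs, but not without Bl-1 0 h replicate 1 (range 0.52, adjusted p = 0.075). A signal difference at 0 h was the rule on these arrays: the F test passed for 80.2% of tested probe sets, and 33.7% differed between 2 accessions, pooled over the pairs.

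At 3 h Sha and Bay-0 stood apart at the top of both orders, and in EXPA18 C24 was in place 2 from the bottom and Col-0 in place 5, against 5 and 2 at 0 h. EXPA7 ran from Bl-1 (27.5 ± 11.4) through Fei-0 (35.8 ± 2.25, n = 2), C24 (44.4 ± 6.85), Col-0 (51.5 ± 12.0) and Bur-0 (55.5 ± 12.9) to Bay-0 (108 ± 28.0) and Sha (208 ± 30.3). EXPA18 ran from Bl-1 (23.2 ± 3.52) through C24 (25.0 ± 7.13), Fei-0 (29.9 ± 0.70, n = 2), Bur-0 (39.6 ± 11.9) and Col-0 (47.7 ± 9.46) to Bay-0 (76.4 ± 10.3) and Sha (114 ± 12.3). In both genes the neighbours that differed at the top were Bay-0 from the accession below it (adjusted p = 0.00172 for EXPA7, 0.0114 for EXPA18) and Sha from Bay-0 (adjusted p = 0.00086 for EXPA7, 0.031 for EXPA18). Of 21 pairs, 13 differed for EXPA7 and 14 for EXPA18, 8 of them by at least 2-fold in each gene, where 29% of tested probe sets differed, pooled over the pairs. The F test over all 7 accessions passed for both genes at 3 h, with ranges of 2.39 for EXPA7 (adjusted p = 5.45e-16) and 1.73 for EXPA18 (adjusted p = 1.31e-14), as it did for 75.2% of tested probe sets. The highest group mean was 4.90 times the lowest for EXPA18 at 3 h and 2.01 times at 0 h.

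Markers of the shoot and of RNA quality were set beside these levels. The 4 measured genes of the shoot photosynthesis list are LHCB4.1, LHCB4.2 and LHCB4.3 of the light-harvesting antenna and RCA, the activator of Rubisco. Their summed signal was 4559 ± 369 at 3 h and 5205 ± 590 at 0 h in Sha (SD, n = 3), and 5238 ± 452 at 3 h and 4941 ± 490 at 0 h in Bay-0. At 3 h Sha and Bay-0, the accessions highest in both expansins, were thus the lowest in this sum, and the others lay between 7470 and 8473. They were also the lowest at 0 h, but Bur-0, next to Bay-0 in EXPA7, had the highest sum then, 12609 ± 495, and the other accessions lay between 8958 and 10337. BGLU23 (PYK10), a beta-glucosidase of roots, was lowest in Bay-0 at 3 h (3178, against 3906 at 0 h) and lay in the middle of the accessions in Sha (4075 ± 431 at 3 h, against 4369 ± 796 at 0 h).

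The GAPDH 3'/5' signal ratio, which goes up as RNA is degraded, shifted with time in some accessions. Col-0 had a ratio of 2.92 before treatment, 2.00 after 30 min, 1.93 after 1 h and 2.01 after 3 h, and in Bl-1 it was 2.52, 1.48, 1.67 and 1.65 at the same times. In both, the ratio was lower at every later time than at 0 h, and these are accessions in which EXPA7 or EXPA18 rose. In Fei-0 it was 1.89, 1.82, 2.66 and 2.45, higher at 1 h, when EXPA7 had passed, than at 0 h. In Sha it was 1.43, 1.98, 1.75 and 1.41, with means at 3 h and 0 h that lay within 1 SD of each other. The ratios at 0 h in Bl-1, Fei-0 and Col-0, the accessions lowest in EXPA7 then, were above the 1.43 to 1.70 of the rest. At 3 h, from the highest EXPA7 signal down, the ratio was 1.41 in Sha, 1.75 in Bay-0, 1.93 in Bur-0 and 2.01 in Col-0. It was then 1.80 in C24, 2.45 in Fei-0 and 1.65 in Bl-1. Sha, highest in EXPA7, thus had the lowest ratio, and Bl-1, lowest in EXPA7, had the next lowest. The part of shoot RNA or RNA quality in these results was not tested.

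EXPA7 and EXPA18 ran together across the 28 groups. Their group means correlated with Pearson's r of 0.901 and Spearman's coefficient of 0.742, and after each accession's own mean was subtracted with r of 0.881 and a Spearman's coefficient of 0.826. These points share arrays and accessions and are a description. Array by array, deviations from the group mean correlated with r of 0.548 over 83 arrays, and with 0.453 without the 2 arrays farthest from the median for EXPA7. Without Sha the group means gave r of 0.832.

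**Figure D3:**
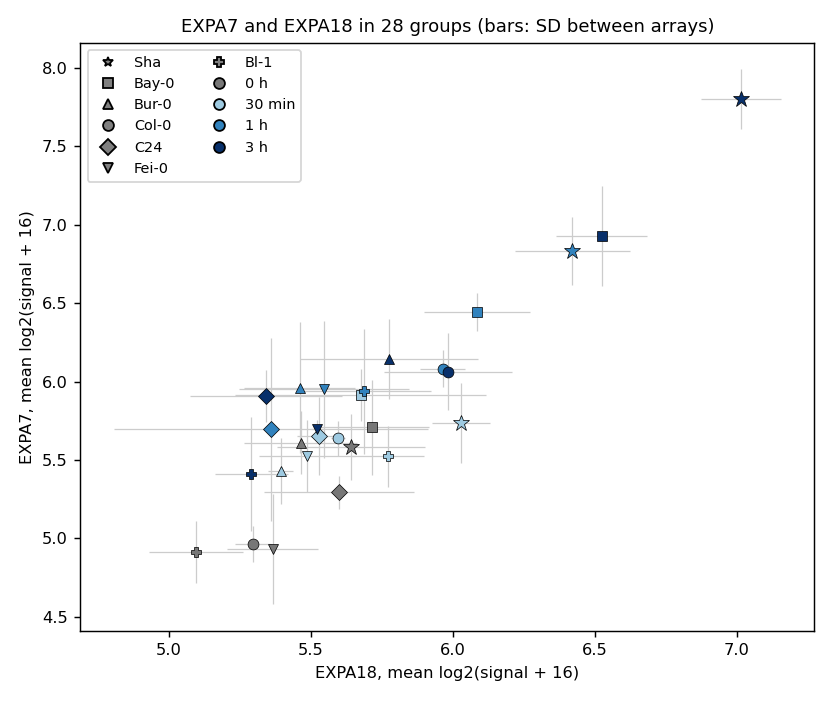
Mean log2(signal + 16) of EXPA7 (y) against EXPA18 (x) in the 28 groups, with marker shape for accession, shade for time and grey bars for the SD between arrays. The groups lie along 1 band (r of 0.901) with Sha at 3 h at its upper end.

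The size of the change in signal differed between the genes. Whether the 2 probe sets report a change in RNA equally was not checked. A stratified permutation test within accessions, added after the data were seen, compared the within-array difference of EXPA7 and EXPA18 between the later time and 0 h (two-sided, 100000 permutations, adjusted over 3 times). The change of EXPA7 exceeded that of EXPA18 by 0.52 (log2) at 3 h and by 0.51 at 1 h, with an adjusted p of 1.5e-05 for both, whose raw value of 1e-05 was the smallest the permutations could give. The excess was positive in 7 of 7 accessions at both times, from 0.22 in Bur-0 to 0.87 in C24 at 3 h. At 30 min it was 0.16, positive in 4 of 7 accessions, and the permutation test did not pass (adjusted p = 0.0792). That value passed without Bay-0 30 min replicate 2 (0.20), Bl-1 0 h replicate 1 (0.18) or Sha 0 h replicate 2 (0.20). Of the sum of squares of EXPA7, 38.1% lay between times, 31.5% between accessions, 18.6% in their interaction and 11.7% between arrays of a group. For EXPA18 the shares were 15.1%, 43.4%, 25.2% and 16.3%.

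Other expansins moved both ways. The family holds alpha-expansins (EXPA), beta-expansins (EXPB) and the expansin-like groups EXLA and EXLB, and of 33 named genes 18 had a probe set of their own. Of these, 15 passed the filter on low signal and are called measured here, EXPA7 and EXPA18 among them, and EXPA21, EXPA24 and EXPB5 did not. In the mean of the accessions 7 of these 15 rose and 2 fell at 30 min. At 1 h 8 rose and 3 fell, and at 3 h 8 rose and 4 fell. Of all tested probe sets, 10.7%, 15.1% and 22.2% rose at the 3 times, and 12.9%, 16.2% and 21.6% fell. The median change of the 15 expansins was 0.16, 0.33 and 0.16, beside -0.03, -0.01 and 0.01 for all tested probe sets. EXPA7 had the largest change of the measured expansins at 3 h. Next to it, EXPA4 rose by 0.52 ± 0.06 (adjusted p = 5.14e-12), EXLA1 by 0.51 ± 0.07 (adjusted p = 2.73e-09), and EXPA20, EXLA3, EXLB1 and EXPA9 by 0.16 to 0.44.

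**Figure D4:**
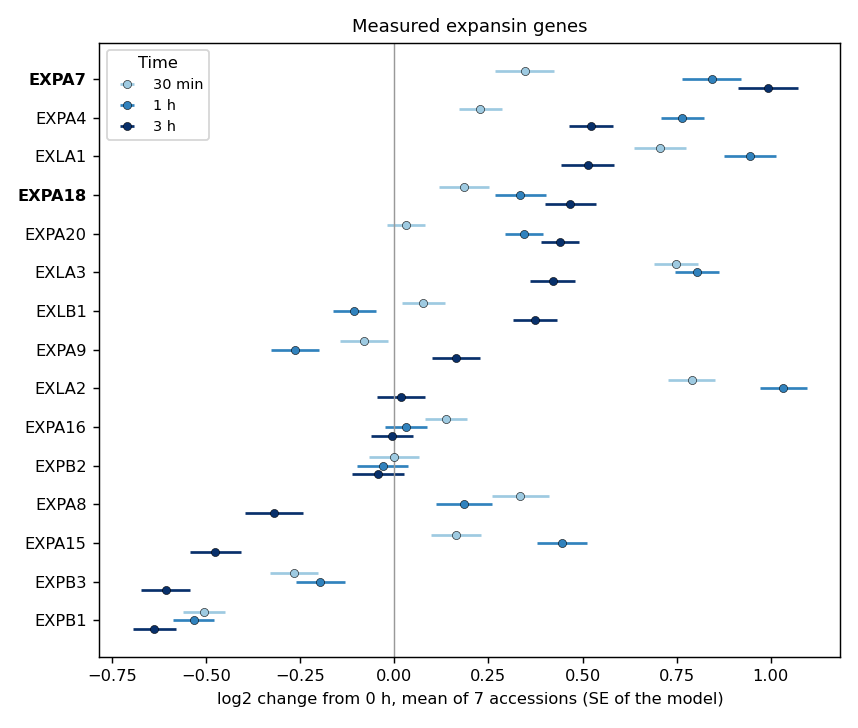
Change from 0 h averaged over the 7 accessions (x, log2, bars are the SE of the model) for each measured expansin (y), at 30 min, 1 h and 3 h (light to dark blue). Among genes that rose, EXPA7, EXPA18, EXPA20, EXLB1 and EXPA9 are highest at 3 h, and EXLA1, EXLA2, EXLA3, EXPA4 and EXPA15 at 1 h.

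Expansins had their largest mean change at different times. EXLA2 rose by 0.79 ± 0.06 at 30 min and 1.03 ± 0.06 at 1 h and was 0.02 ± 0.06 from its 0 h level at 3 h, which did not pass (adjusted p = 0.841). EXLA1 stood at 0.71, 0.94 and 0.51 at the 3 times. EXPA7 and EXPA18 had their largest mean rise at 3 h, as did EXPA20, with 0.03, 0.34 and 0.44. So did EXLB1, with 0.08, -0.11 and 0.37, and EXPA9, with -0.08, -0.26 and 0.16. The genes that fell in the mean at 3 h were EXPB1 (-0.64 ± 0.06), EXPB3 (-0.61 ± 0.07), EXPA15 (-0.47 ± 0.07) and EXPA8 (-0.32 ± 0.08). The mean of EXPA8 joined opposite responses, since it rose in Bay-0 by 2.08 ± 0.20 (adjusted p = 1.58e-13) and fell in 5 accessions, most in Bur-0 (-1.78 ± 0.20, adjusted p = 3.39e-11). At 1 h EXPA15 had been higher by 0.45 ± 0.07. EXPA16 and EXPB2 passed at none of the 3 times. The F test for a difference in response between accessions passed for 9 of the 15 at 3 h, 7 of them with a range of at least 1. Of all tested probe sets, 32.4% passed it then, and 11.2% did so with a range of at least 1.

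Few other root hair genes could be matched by name and set beside them. Of 49 names on a list of root hair growth genes, 4 had a probe set of their own and 3 of these passed the filter on low signal. The names PRX44, PRX73 and RHS2 matched no gene symbol or synonym, so no probe set was sought for them. Whether their genes are on the array under other names was not checked. CSLD2, a cellulose synthase-like protein needed for hair growth, rose by 0.16 ± 0.04 at 30 min and 0.31 ± 0.04 at 1 h, and was 0.07 ± 0.04 at 3 h (adjusted p = 0.101). FER, a receptor kinase of the plasma membrane, rose by 0.17 ± 0.05, 0.14 ± 0.05 and 0.17 ± 0.05 at the 3 times. SCN1, which limits where hairs start, passed at none of them (-0.03, -0.04 and -0.02). So 2, 2 and 1 of the 3 tested rose and none fell, with medians of 0.16, 0.14 and 0.07. Of all tested probe sets, 10.7%, 15.1% and 22.2% rose at these times, with median changes of -0.03, -0.01 and 0.01. XTH26, a xyloglucan endotransglucosylase/hydrolase, was under the filter and was not tested. Its mean signal in Sha (± SD) was 8.04 ± 6.48 before treatment, then 23.0 ± 3.44 (30 min), 25.0 ± 6.43 (1 h) and 21.9 ± 6.92 (3 h). In Bay-0 it was 4.34 ± 3.18, 22.8 ± 5.14, 27.9 ± 2.79 and 20.1 ± 12.3. In Bl-1 it was 0.49 ± 0.16, 8.22 ± 6.72, 9.72 ± 3.63 and 0.87 ± 0.33, higher in the middle times than at either end. C24 gave 18.4 ± 4.79, 18.3 ± 0.63, 12.4 ± 9.99 and 18.9 ± 1.77. Col-0 gave 1.09 ± 0.77, 1.54 ± 1.03, 11.0 ± 1.87 and 5.23 ± 3.14. Bur-0 gave 5.29 ± 5.64, 5.66 ± 6.27, 23.9 ± 7.85 and 13.9 ± 9.39. Fei-0 gave 7.50 ± 5.96, 9.11 ± 8.26, 15.6 ± 1.98 and 5.92 ± 7.15 (n = 2 at 3 h). Over all groups its means ran from 0.49 to 27.9. Of 13 names of epidermal patterning genes, CPL3 matched several genes and was not looked up. JKD and TRY had a probe set of their own, and TRY, with group means of 2.97 to 12.5, was under the filter. JKD, a zinc-finger protein, fell by 0.18 ± 0.07 at 3 h (adjusted p = 0.042). Of the 9 root hair transcription factor names listed, RSL3 and RSL5 matched no gene, and none of the rest had a probe set of its own here.

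Genes outside the root hair lists gave the background of the tissue. All 4 measured photosynthesis genes fell at 3 h, led by LHCB4.2 (-0.61 ± 0.06) and LHCB4.3 (-0.44 ± 0.06), with RCA at -0.29 ± 0.05 and LHCB4.1 at -0.16 ± 0.05, while 21.6% of all tested probe sets fell then. At 1 h 2 of the 4 fell and at 30 min none, in limma. BGLU23, the 1 measured gene of 19 names on a list of other root cell types, fell by 0.14 ± 0.04 at 3 h (adjusted p = 0.00356). The names BRN1, BRN2 and SMB on that list matched several genes and were not looked up. EXPA7 and EXPA18 rose at 3 h while the measured shoot genes and BGLU23 fell. What these falls contributed to the expansin values was not tested.

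The genes most like EXPA7 and EXPA18 over the 28 group means were picked by correlation among 8673 genes, so what follows describes them and tests nothing. For EXPA7 the closest in level was AT4G30320 (r = 0.923), then AT4G25790 (0.908), with EXPA18 in place 3. For EXPA18 the closest was AT5G04960 (0.921), with EXPA7 in place 2. After each accession's mean was subtracted, AT4G30320 (0.916) led for EXPA7 and AT1G30870 (0.917) for EXPA18, and the members stood in place 6 and 4 of each other's list. The rest of the 9 genes named this way were AT4G26010, HRGP1 (AT3G54590, annotated as a hydroxyproline-rich glycoprotein), AT5G06630, AT1G34510 and AT3G49960. Some names on the root hair list matched no gene. Whether any of these 9 genes is on that list under another name was not checked. The mean change of the 9 at 3 h ran from 0.47 (AT5G04960) to 1.18 (AT4G26010). For 8 of the 9 the largest 3 h change was in Sha, and for AT1G30870 it was in Col-0 (1.54). AT4G30320 was dim, below 16 on 49 arrays, and AT1G34510 on 42.

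**Figure D5:**
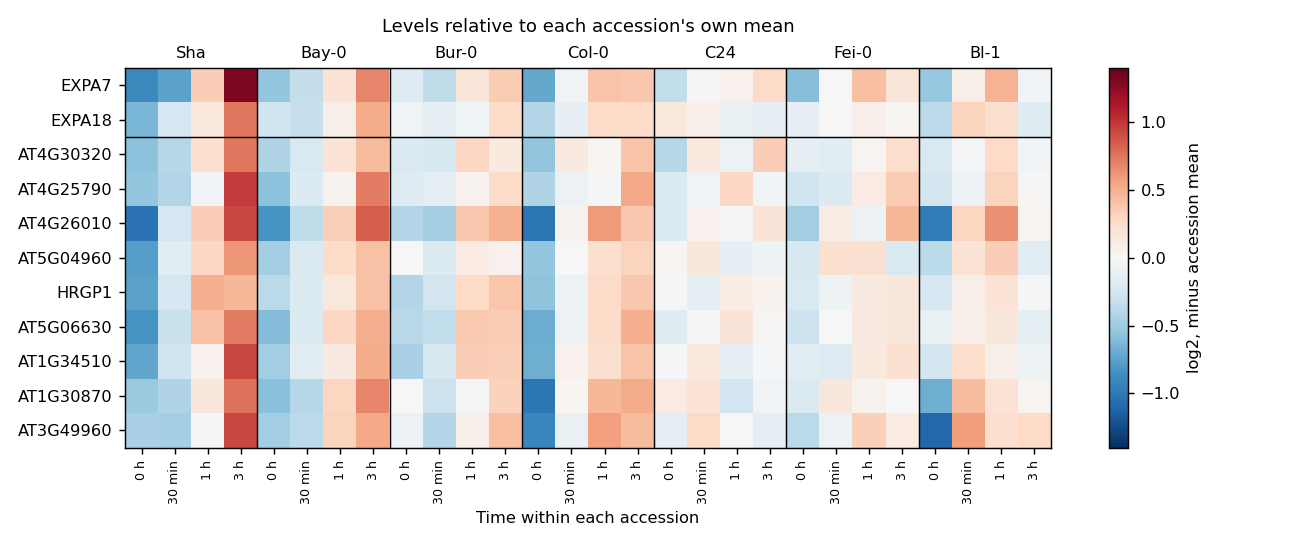
Mean log2(signal + 16) in each of the 28 groups relative to the accession's own mean (colour, red above and blue below) for EXPA7, EXPA18 and the 9 genes most like them (rows), by accession and time (columns). Each of the 11 rows is highest within Sha at 3 h except HRGP1, and AT1G30870 has its lowest value in Col-0 at 0 h.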

How the data were processed

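The deposited values were signal intensities, linear, with a value for each probe set on each array. They were made with MAS5 and GCOS per the submitters' processing notes, whose versions are not given. RNA was labelled with biotin by the 3' IVT Express protocol, per the labels. Values were taken as log2(signal + 16), the lowest 30% of probe sets by mean (6824) were left out, and 1 mean per group was fitted over all 83 arrays in limma 3.58.1 (R 4.3.3, package data.table, version 1.17.8), trended prior, 55 residual and 13.2 prior degrees of freedom. "Passed" means a two-sided Benjamini-Hochberg adjusted p under 0.05 over all 15922 probe sets tested, and a change of 2-fold was counted separately. List genes used the probe set with the highest mean among those listed with 1 gene.

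No array was left out or imputed, and no 2 arrays held identical values. Title numbers run through accessions and times in turn, so group and order of handling cannot be told apart. The fit was tested on simulated data. For arrays, their number limits the precision. Genes named were EXPA7, EXPA18, up to 6 genes most correlated with each by level and by centred level, up to 4 changes each way per list at 3 h, and GH3.3. Members and lists were chosen with earlier results of these data known. Alternatives were pseudocounts of 1 and 64, no filter or the lowest 50% left out, quantile normalization, array weights, each accession's own arrays alone, a replicate block, and leaving out Bay-0, Sha, each array or each replicate number. No sequence is shown.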

Additional observations from a re-analysis of the deposited data

Results flagged for a closer look

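A difference between accessions in the same contrast set 3 results apart, by the moderated F test over the 7 accessions. The range of the EXPA18 response at 1 h was 1.02 (adjusted p = 0.00637). This call was lost without all arrays of replicate number 1 (1.13, adjusted p = 0.182). The range of the EXPA7 response at 3 h was 1.72 (adjusted p = 1.59e-05). The range of the EXPA18 response at 3 h was 1.63 (adjusted p = 7.04e-06). No reason for these differences was tested.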

How the results depend on the processing

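Of 350 recomputed values of the main results with whole settings changed, 332 kept their direction and side of the threshold, 3 lost the call, 12 gained one and 3 counts moved by over 1.5 times. None reversed. Calls lost were EXPA18 at 30 min in the mean, with no filter (0.1857) and without Sha (0.1519), and the EXPA7 range at 3 h without Sha (0.7203). Calls gained were, with a pseudocount of 64, both EXPA18 steps (0.08796 up to 1 h, 0.08871 after it) and the EXPA7 step from 1 h to 3 h (0.1202). With a pseudocount of 1 they were the EXPA7 ranges at 30 min (1.374) and 1 h (1.234) and the excess of EXPA7 over EXPA18 at 30 min (0.2907), which also passed without Sha (0.2261). With array weights they were the EXPA18 step from 30 min to 1 h (0.1587), the EXPA18 range at 30 min (0.7824, and 0.8166 with quantile normalization) and the EXPA7 range at 1 h (1.14). Expansins lower at 30 min numbered 1 with 50% left out, which tested fewer genes, and root hair growth genes higher at 3 h numbered 2 with no filter and 2 without Bay-0. The cause was not tested for the rest. With 50% left out, EXPA18 was not tested.

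Leaving out single arrays or replicate numbers gave 0.1363 to 0.2224 for EXPA18 in the mean at 30 min, 0.0988 to 0.2338 for its step from 30 min to 1 h, and 0.4401 to 0.7463 for its range of levels at 0 h. Its range of responses ran from 0.651 to 1.143 at 30 min and from 0.7827 to 1.377 at 1 h. For EXPA7 the step from 1 h to 3 h ran from 0.07789 to 0.1925 and the range at 1 h from 0.7744 to 1.382. The excess of EXPA7 over EXPA18 at 30 min ran from 0.09895 to 0.2604. Root hair growth genes higher numbered 1 to 2 at 30 min, 1 to 2 at 1 h and 0 to 2 at 3 h, and shoot genes lower at 1 h 0 to 2.

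The replicate numbers showed no clear pairing of the arrays. Over 123 same-number pairs the deviations from group means correlated with a median r of 0.00838 (-0.348 to 0.255), and 18 pairs were over 0.1. Over 246 pairs of different number the median was -0.00583 (-0.349 to 0.366), and 26 were over 0.1. These values cannot settle whether some arrays were paired. With the replicate block, EXPA7 changed by 0.97 and EXPA18 by 0.46 at 3 h in the mean. The block moved the EXPA7 range at 1 h past the threshold (0.8997, adjusted p = 0.0232) and EXPA7 in Fei-0 at 3 h below it (0.60, adjusted p = 0.0609). It changed no other call of the 2 genes.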
